A study of Drosophila melanogaster with 12 samples.

Results

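The comparison set S2 cells that expressed wild-type recombinant BRM (recBRM-V5 cells) against control S2 cells. It covered 4 of the 8 RNA-seq libraries and 4 of the 12 samples of the series, chosen by their labels, with 2 biological replicates in each group. S2 cells are an established, hemocyte-like cell line of Drosophila melanogaster. The recBRM-V5 cells were stably transfected with a plasmid for V5-tagged wild-type BRM under a copper-inducible metallothionein promoter, received dsRNA against BRM for 48 h (30 µg per well), and were exposed to copper sulfate for the last 24 h. The control cells are labelled as empty plasmid and received dsRNA against GFP at the same dose and for the same time. The sources used here do not say whether the control cells were given copper, or whether the stable line is a single clone. The plasmid and the cell line that carries it, the dsRNA and the copper therefore cannot be told apart from the recombinant protein in any result below.

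BRM (Brahma) is the ATPase of the fly SWI/SNF complex, which moves and evicts nucleosomes and takes part in both activation and repression of transcription. Copper in fly cells activates the metal-responsive factor MTF-1, which drives metallothionein genes, and copper overload also causes oxidative and protein-folding stress, to which cells respond through the factors CncC and Hsf. These are general background and were not measured here.

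The plasmid gene checked the labels. Brm had 16635 and 24893 CPM (read counts scaled to library size by the TMM method, so not corrected for gene length) in recBRM-V5 cells, against 433 and 446 CPM in control cells. Both recBRM-V5 libraries lay far above both control libraries, a log2 fold change of 5.56 ± 0.31 (SE, adjusted p = 0.000192, edgeR quasi-likelihood test with Benjamini-Hochberg adjustment, n = 2 each). The counts do not separate plasmid from chromosomal transcripts. For reference, the BRM-depleted cells without recombinant BRM had 177 and 175 CPM of brm. Of the other SWI/SNF subunits tested none was called by edgeR or DESeq2, 2 were lower at an unadjusted p under 0.05, and their log2 fold changes lay between -0.54 and -0.01.

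Of 8165 genes tested, 892 rose (10.9%) and 591 fell (7.24%) at an adjusted p under 0.05. In all of these genes the recBRM-V5 and control libraries did not overlap. Selection by the test favours such genes, and the share among all genes tested was not counted, so this is not separate evidence. The median change was 3.11-fold among risen genes and 2.13-fold among fallen genes, and 356 risen and 115 fallen genes changed at least 4-fold. The risen genes had a median of 12.1 CPM in control cells and the fallen genes 56.1 CPM, against 38.3 CPM for all genes tested, and 211 risen genes were under 1 CPM in control cells. The number of calls depended on the control libraries. Without control replicate 1, 311 genes rose and 212 fell, and without control replicate 2, 309 rose and 193 fell. Fitting only the 4 libraries gave 509 risen and 231 fallen genes. The direction of change was kept in every one of the called genes that could be tested in these fits. Because the libraries of called genes did not overlap, dropping or refitting libraries could hardly reverse a direction, so this adds no support. The families below are described by their values as well as by their calls. The median log2 fold change of all genes tested, beside which each family's median should be read, was 0.0038.

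**Figure D1:**
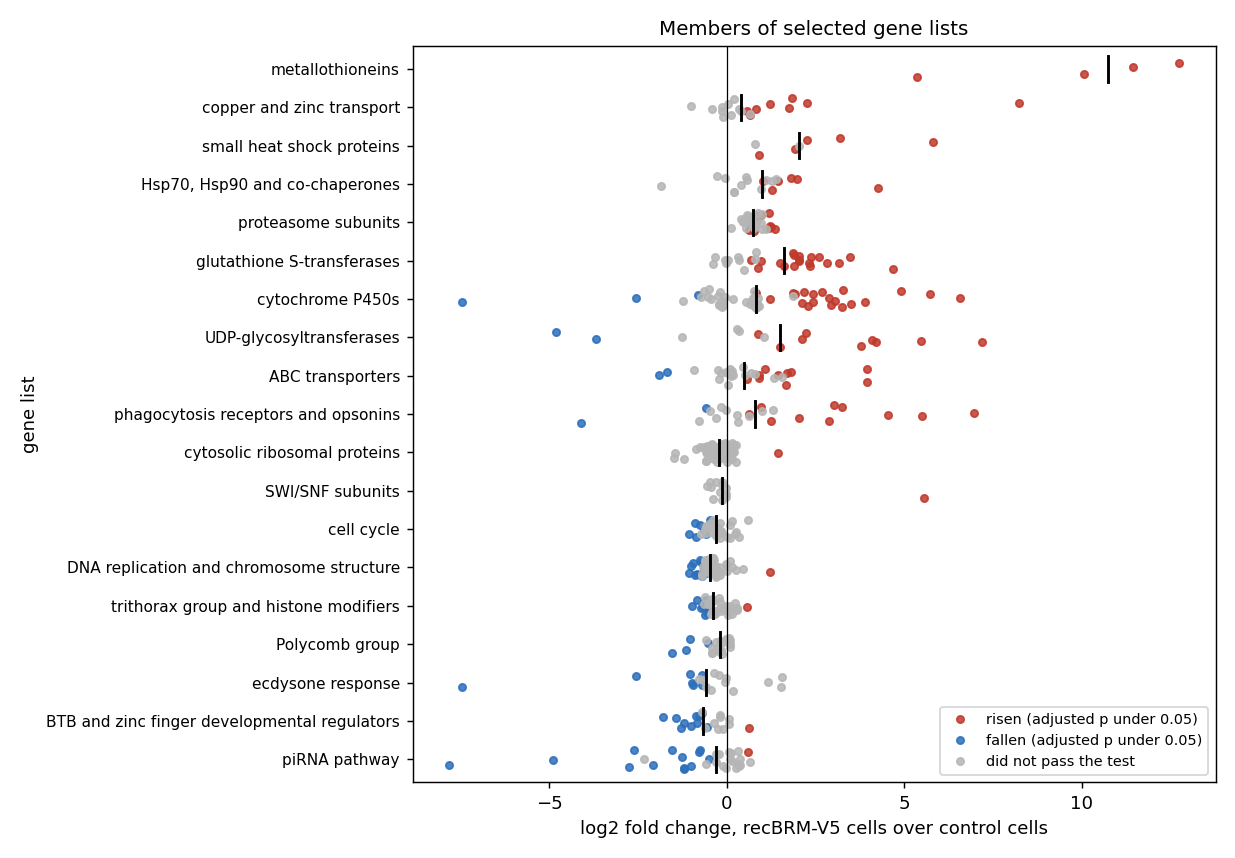
Log2 fold change, recBRM-V5 cells over control cells, of every tested member of 19 gene lists (1 point a gene, jittered vertically, and a black bar for the list's median). Red points passed the test as risen and blue points as fallen. All 4 metallothioneins lie above 5, most glutathione S-transferases and cytochrome P450s with a call lie to the right, and the called members of the Polycomb, ecdysone and cell cycle lists lie to the left. The values of genes with 0 counts in one group depend on the fit's prior count.

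All 4 metallothionein genes tested rose, and they were among the largest changes in the transcriptome. Metallothioneins are small cysteine-rich proteins that bind copper, zinc and cadmium. MtnA had 6763 and 10171 CPM in recBRM-V5 cells, against 188 and 223 CPM in control cells, a log2 fold change of 5.36 ± 0.34 (adjusted p = 0.000239). MtnD had 97.3 and 116 CPM in recBRM-V5 cells and no count in either control library. This made it at least 313-fold higher when the control libraries are set at a floor of 3 counts each (adjusted p = 0.000192). MtnE had 33.1 and 53.9 CPM in recBRM-V5 cells and no count in control cells, at least 128-fold higher by the same floor (adjusted p = 0.00102). MtnB had 77.2 and 76.5 CPM in recBRM-V5 cells, from 648 and 538 counts, against a single count in the control libraries together. The ratio was 1360, with a 95% exact interval of 243 to 53700 that covers counting error only (adjusted p = 0.00138). The median log2 fold change of the 4 genes was 10.75, or 7.65 with MtnD and MtnE at their bounds. MtnC and MtnF were not tested, with 1 and 0 counts over the 4 libraries. All 4 calls held when any 1 library was left out.

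The upstream sequences of these genes are shown because the members moved together and because their metal response elements can be read in them. Each line gives the 250 bases before the annotated start of the gene in the Release 6 genome, in the direction of transcription, with the metal response element cores TGCACNC and TGCGCNC (either strand) in capitals. ZnT35C, a zinc transporter gene described next, is set beside them.
MtnA, chr3R:9784371-9784620, minus strand: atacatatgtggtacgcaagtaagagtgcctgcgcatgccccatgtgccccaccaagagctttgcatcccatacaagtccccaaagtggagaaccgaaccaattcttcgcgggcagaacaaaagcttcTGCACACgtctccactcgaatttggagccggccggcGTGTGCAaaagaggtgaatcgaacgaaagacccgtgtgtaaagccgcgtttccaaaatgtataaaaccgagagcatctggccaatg
MtnB, chr3R:20503747-20503996, minus strand: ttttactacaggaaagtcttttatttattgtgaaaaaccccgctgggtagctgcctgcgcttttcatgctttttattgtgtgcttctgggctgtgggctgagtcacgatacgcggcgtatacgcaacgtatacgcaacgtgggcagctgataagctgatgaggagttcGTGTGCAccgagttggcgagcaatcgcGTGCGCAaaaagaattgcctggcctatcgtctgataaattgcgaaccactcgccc
MtnD, chr3R:20534712-20534961, plus strand: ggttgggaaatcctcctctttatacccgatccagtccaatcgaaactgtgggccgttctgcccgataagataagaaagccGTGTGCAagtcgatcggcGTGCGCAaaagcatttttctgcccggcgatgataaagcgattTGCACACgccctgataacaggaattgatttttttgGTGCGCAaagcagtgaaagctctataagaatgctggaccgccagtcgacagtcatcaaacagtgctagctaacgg
ZnT35C, chr2L:15247715-15247964, minus strand: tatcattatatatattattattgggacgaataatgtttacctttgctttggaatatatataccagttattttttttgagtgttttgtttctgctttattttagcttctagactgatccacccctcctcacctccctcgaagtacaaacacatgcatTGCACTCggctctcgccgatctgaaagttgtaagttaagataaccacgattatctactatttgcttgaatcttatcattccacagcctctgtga

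The window of MtnA held 2 cores, that of MtnB 2 and that of MtnD 4. MtnD and MtnE are transcribed in opposite directions from neighbouring starts, and their 250-base windows share 243 bases and the same 4 cores. The window of ZnT35C held 1 core. Of the 19 tested genes of copper and zinc transport, 3 (15.8%) had a core of either form. Ctr1A, named after its values were seen, had 4 cores and rose by 0.56 on the log2 scale. The windows of ZnT77C, foi and Ctr1B, which also rose, held none. A core of either form was found in 15.9% of the windows of all tested genes with a gene model, and 2 or more in 2.64%. All 4 metallothionein windows had at least 2. Among risen genes as a whole the share with a core was 17.2% and among fallen genes 17.3%, both near that of all tested genes. A match is a run of letters and not a measured binding site.

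Genes of copper and zinc transport rose with them. Of 19 tested members of a list of copper and zinc carriers and chaperones, 8 rose and none fell, with a median log2 fold change of 0.41. ZnT35C, an efflux carrier that loads zinc into vesicles, had 16.7 and 27 CPM in recBRM-V5 cells, from 140 and 190 counts, against 1 count in the control libraries together. The ratio was 378, with an exact interval of 67.4 to 15000 (adjusted p = 0.00069). The related ZnT77C had 30.6 and 43.2 CPM in recBRM-V5 cells, against 8.23 and 7.19 CPM in control cells (log2 fold change 2.25 ± 0.31, adjusted p = 0.00273). The zinc importer gene foi had 625 and 969 CPM in recBRM-V5 cells, against 240 and 234 CPM in control cells (1.75 ± 0.22, adjusted p = 0.00201). The paper names foi, Ctr1B, ATP7, Ctr1A, Zip99C and ZnT63C of this list among genes that copper sulfate raised directly. It left those genes out of its own analysis. The copper importer Ctr1B was low in both groups, with 5.6 and 5.55 CPM against 1.27 and 1.83 CPM (1.85 ± 0.44, adjusted p = 0.0237), and its call was lost without either control replicate. Without control replicate 1 or 2 the list kept 3 risen genes each, ZnT35C, ZnT77C and foi.

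Many detoxification enzyme genes rose. Glutathione S-transferases couple glutathione to reactive compounds. Of 29 tested, 19 rose and none fell, with a median log2 fold change of 1.61. The count was 13 without control replicate 1 and 12 without control replicate 2. GstD5 had 434 and 539 CPM in recBRM-V5 cells, against 50.9 and 37.5 CPM in control cells (log2 fold change 3.46 ± 0.36, adjusted p = 0.00104). GstD6 had 46.4 and 51.9 CPM, against 2.64 and 1.1 CPM (4.68 ± 0.49, adjusted p = 0.00102), and GstE7 had 75.7 and 83.3 CPM, against 9.92 and 7.8 CPM (3.16 ± 0.28, adjusted p = 0.000587). The risen members included genes of the Delta, Epsilon, Omega and Sigma classes. The GstD and GstE genes lie in clusters of close copies, so reads could be split between neighbours, and single members are less certain than the family.

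Cytochrome P450s are heme enzymes that oxidize hormones, fatty acids and foreign compounds. Of 51 tested, 20 rose and 3 fell, with a median log2 fold change of 0.84. Cyp28a5 had 74.5 and 79.4 CPM in recBRM-V5 cells, against 0.95 and 0.609 CPM in control cells (6.58 ± 0.36, adjusted p = 0.000192). This gene lies among the Nimrod genes on chromosome arm 2L, which also rose and are described below. Cyp4e1 had 17.5 and 25.6 CPM, against 0.422 and 0.366 CPM (5.71 ± 0.74, adjusted p = 0.00229), and Cyp4p3 had 12.5 and 19.1 CPM, against 0.422 and 0.609 CPM (4.9 ± 0.43, adjusted p = 0.000577). The risen genes were mostly of the Cyp4 and Cyp6 families, whose members can also share reads. Of the 3 that fell, dib and Cyp18a1 act on steroid hormones and are described with the ecdysone genes. Without recBRM-V5 replicate 1, 6 P450 genes fell.

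UDP-glycosyltransferases, which attach sugars to lipophilic compounds, showed 9 risen and 2 fallen genes of 15 tested and a median log2 fold change of 1.51. Ugt37D1 had 59.5 and 80.9 CPM in recBRM-V5 cells, against 1.58 CPM in each control library (5.46 ± 0.44, adjusted p = 0.000429). Ugt35C1 had 56.2 and 39 CPM, against 2.74 and 2.44 CPM (4.19 ± 0.34, adjusted p = 0.000429). The family was not uniform. Ugt305A1 had 0.119 and 0 CPM, against 2.32 and 2.07 CPM (-4.79 ± 0.98, adjusted p = 0.014), a call lost without either control replicate. The family had 5 risen and 1 fallen genes without control replicate 1, and 4 and 1 without control replicate 2. ABC transporters, which export conjugates and drugs, had 10 risen and 2 fallen genes of 30. CG9663 had 171 and 223 CPM in recBRM-V5 cells, against 56.9 and 55.3 CPM in control cells (1.81 ± 0.16, adjusted p = 0.000589), and the multidrug transporter Mdr50 had 8.22 and 14.9 CPM, against 1.06 and 0.366 CPM (3.96 ± 0.6, adjusted p = 0.00413). Without control replicate 2, 5 of the ABC transporters rose. Both fallen calls were lost without recBRM-V5 replicate 1 and without control replicate 1 or 2, and without recBRM-V5 replicate 2 the count was 1.

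Genes around CncC and Keap1, the fly counterparts of the oxidative stress regulators Nrf2 and KEAP1, were mostly higher. Of 9 tested, 6 rose and 1 fell. The autophagy adaptor ref(2)P, the fly p62, had 1080 and 1629 CPM in recBRM-V5 cells, against 248 and 234 CPM in control cells (2.49 ± 0.22, adjusted p = 0.000589). Ets21C, a stress-induced transcription factor, had 42.3 and 65.3 CPM, against 14.4 and 11.6 CPM (2.05 ± 0.27, adjusted p = 0.00229). Keap1 itself had 30.1 and 43.9 CPM, against 17.5 and 13.6 CPM (1.24 ± 0.27, adjusted p = 0.0163), and cnc, which was chosen after its values were seen, had 230 and 265 CPM, against 129 and 133 CPM (0.92 ± 0.15, adjusted p = 0.00553). The calls of Keap1 and cnc were lost without either control replicate, when the list had 3 risen genes (without replicate 1) and 2 (without replicate 2). The fallen call was lost without recBRM-V5 replicate 1 and without control replicate 2. In the glutathione and thioredoxin list 4 of 17 rose. Gclc, the catalytic subunit of the enzyme that starts glutathione synthesis, had 252 and 593 CPM in recBRM-V5 cells, against 58.1 and 65.6 CPM in control cells (2.77 ± 0.42, adjusted p = 0.00434). Gtpx, named after glutathione peroxidases, had 278 and 379 CPM, against 134 and 121 CPM (1.36 ± 0.18, adjusted p = 0.00245). These 2 calls were the ones left without either control replicate.

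Genes of protein folding and degradation also rose. Of 7 small heat shock protein genes tested, 5 rose, with a median log2 fold change of 2.03. Hsp26 had 293 and 685 CPM in recBRM-V5 cells, against 50.6 and 56.8 CPM in control cells (3.19 ± 0.44, adjusted p = 0.00289). Hsp23 had 184 and 394 CPM, against 65.1 and 87.1 CPM (1.92 ± 0.52, adjusted p = 0.038), and lost its call without recBRM-V5 replicate 2 and without either control replicate. Among 18 genes of the Hsp70 and Hsp90 families and their partners, 6 rose. Hsp83, the fly Hsp90, had 4579 and 7354 CPM in recBRM-V5 cells, against 1958 and 2411 CPM in control cells (1.45 ± 0.28, adjusted p = 0.0103). The mitochondrial chaperone Hsc70-5 had 661 and 1007 CPM, against 383 and 439 CPM (1.02 ± 0.22, adjusted p = 0.0175). Hsp83 and Hsc70-5 also lost their calls without either control replicate. The inducible copy Hsp70Ab had 31.1 and 28.6 CPM, against 8.44 and 6.58 CPM (1.98 ± 0.3, adjusted p = 0.00435), but the Hsp70 copies are near identical and reads cannot be assigned to one of them with confidence. Without control replicate 1 and 2 the small heat shock list had 2 and 3 risen genes and the Hsp70 and Hsp90 list 1 and 2.

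The heat shock element GAANNTTC, searched in the same 250-base windows, was found in 7.3% of all tested genes. It was found in 3 of 7 small heat shock genes and in 7 of 18 genes of the Hsp70 and Hsp90 list, all 7 of them with at least 2 matches. These 7 were Hsp68 and the near-identical Hsp70 copies, so they do not count as 7 independent windows. The risen Hsp83 and Hsc70-5 held no match, whereas Hsp70Ba, Hsp70Bb and Hsp70Bbb held 2 each and were not called. The share was 7.41% among risen and 6.07% among fallen genes. Hsp68, an inducible Hsp70 family gene with 98.5 and 149 CPM in recBRM-V5 cells against 45.8 and 55.2 CPM in control cells, was chosen after its values were seen and is shown because its window held the most matches, 4 (capitals mark the elements).
Hsp68, chr3R:24057311-24057560, minus strand: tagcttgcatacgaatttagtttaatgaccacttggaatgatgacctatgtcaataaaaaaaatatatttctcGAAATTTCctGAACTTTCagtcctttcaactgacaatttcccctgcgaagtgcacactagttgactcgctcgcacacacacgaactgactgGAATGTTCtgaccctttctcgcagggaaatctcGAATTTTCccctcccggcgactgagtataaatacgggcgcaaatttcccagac
The rise of Hsp68 was 1.29 ± 0.37 on the log2 scale (adjusted p = 0.0457) and was lost without recBRM-V5 replicate 2 and without either control replicate.

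All 36 proteasome subunits and assembly factors tested had a positive log2 fold change, with a median of 0.76, and 13 rose. The proteasome degrades ubiquitin-tagged proteins. Rpn9 had 347 and 360 CPM in recBRM-V5 cells, against 143 and 131 CPM in control cells (1.37 ± 0.15, adjusted p = 0.0012). Rpt5 had 250 and 317 CPM, against 125 and 122 CPM (1.2 ± 0.15, adjusted p = 0.0022). The number of calls varied with the libraries, being 32 without recBRM-V5 replicate 1, 3 without control replicate 1 and 2 without control replicate 2. Among 82 cytosolic ribosomal protein genes the median was -0.2, which changed sign without recBRM-V5 replicate 1 and without control replicate 2. Of these genes 1 was called, RpS19b, which lost its call without recBRM-V5 replicate 2 or either control replicate, and 4 fell without recBRM-V5 replicate 2. Among 69 respiratory chain genes none was called by edgeR or DESeq2 and 0 had an unadjusted p under 0.05, although 8 rose and 1 fell without recBRM-V5 replicate 1.

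**Figure D2:**
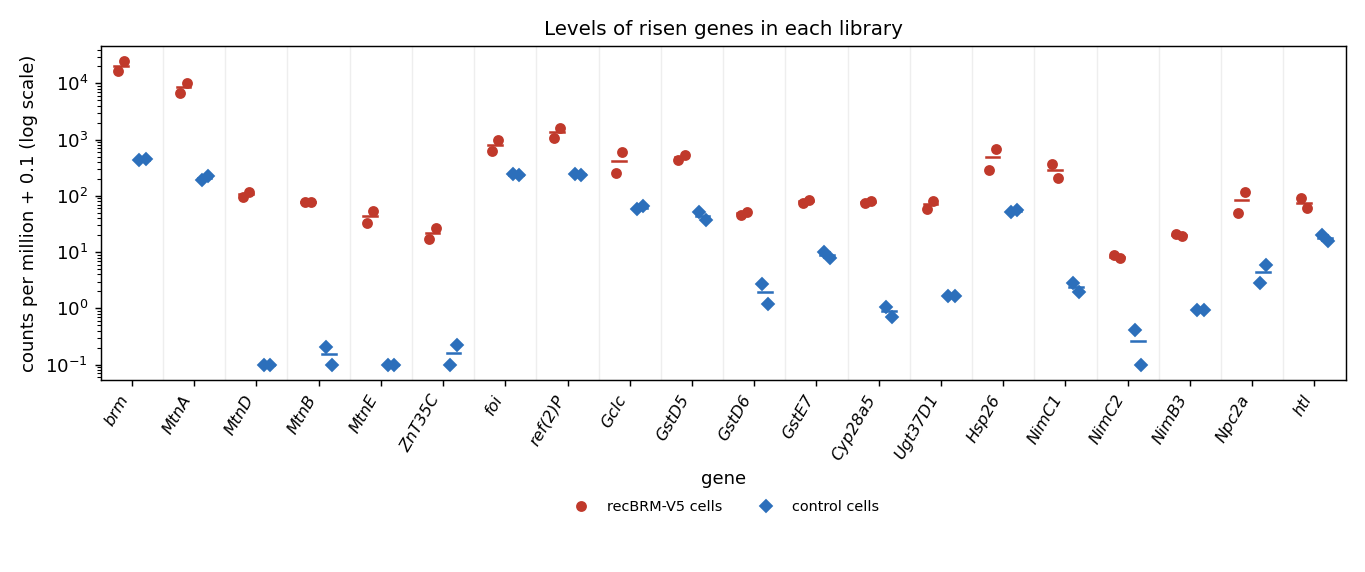
CPM plus 0.1 (log axis) of 20 risen genes in each library of recBRM-V5 cells (red circles, left) and control cells (blue diamonds, right), with a bar at the mean of the 2 libraries. In each gene both recBRM-V5 libraries lie above both control libraries, and MtnD and MtnE have no count in control cells.

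Phagocytosis genes of the Nimrod family were prominent among the risen genes. Nimrod proteins are EGF-repeat receptors and secreted proteins of blood cells, several of which bind bacteria or apoptotic bodies. Of 22 tested genes for phagocytosis receptors and opsonins, 10 rose and 2 fell, with a median log2 fold change of 0.8. NimC1, a bacterial phagocytosis receptor of plasmatocytes, had 376 and 205 CPM in recBRM-V5 cells, against 2.74 and 1.83 CPM in control cells (6.97 ± 0.41, adjusted p = 0.000192). NimC2 had 8.69 and 7.82 CPM, from 73 and 55 counts, against 3 counts in the control libraries together. Its ratio was 48.9, with an exact interval of 16.4 to 240.0 (adjusted p = 0.00288). NimB3 had 21.1 and 18.9 CPM in recBRM-V5 cells, against 0.844 and 0.853 CPM in control cells (4.53 ± 0.48, adjusted p = 0.00108). NimB1, NimB2, NimB5 and NimC4, named after their values were seen, rose by 3.01, 2.89, 3.26 and 2.04 on the log2 scale, NimB2 without a call when control replicate 1 was left out. NimB1, NimB2, NimB3, NimB5, He, NimC1, Cyp28a5 and NimC2 lie in this order on chromosome arm 2L, between positions 13963507 and 13983269. Their rises may therefore not be independent of one another. NimC4 lies outside this stretch, from position 14047582.

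Other receptors of the same list did not move with them. The gene eater had 523 and 241 CPM in recBRM-V5 cells, against 340 and 287 CPM in control cells, and crq had 1202 and 615 CPM, against 822 and 633 CPM, and neither passed the test (adjusted p = 0.596 and 0.525). The opsonin gene Tep1, which encodes a complement-like thioester protein, fell. It had 9.53 and 8.96 CPM in recBRM-V5 cells, against 186 and 129 CPM in control cells (-4.09 ± 0.25, adjusted p = 0.000192). The list had 6 risen genes without control replicate 1 and 8 without control replicate 2. The other fallen gene, scramb1, named after its values were seen, lost its call without recBRM-V5 replicate 2 or either control replicate, and 3 genes fell without recBRM-V5 replicate 1.

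Blood cell identity genes split in the same way. Of 14 tested hemocyte genes 3 rose and 3 fell. The risen ones were NimC1, He, which encodes the plasmatocyte surface protein Hemese, and Pxn, which encodes the matrix enzyme Peroxidasin. NimC1 and He are neighbours in the stretch of 2L given above. He had 310 and 165 CPM in recBRM-V5 cells, against 30.9 and 21.9 CPM in control cells (3.17 ± 0.36, adjusted p = 0.00147), and Pxn had 414 and 432 CPM, against 122 and 184 CPM (1.47 ± 0.2, adjusted p = 0.00245). Hml, which encodes the clotting protein Hemolectin, had 254 and 223 CPM in recBRM-V5 cells, against 828 and 810 CPM in control cells (-1.78 ± 0.46, adjusted p = 0.0318). Ama had 39.2 and 49.8 CPM, against 177 and 234 CPM (-2.21 ± 0.25, adjusted p = 0.00138). The blood cell GATA factor srp had 202 and 201 CPM, against 298 and 329 CPM (-0.64 ± 0.16, adjusted p = 0.0281). The calls of Hml and srp were lost without recBRM-V5 replicate 2 or either control replicate, which left Ama as the only one of the 3 called, and 5 genes rose without recBRM-V5 replicate 2.

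The other hemocyte genes tested, Col4a1, vkg, Fer1HCH, Fer2LCH, Pvr, crq, eater and ush, did not pass the test, with log2 fold changes between -0.51 and 0.43, and gcm and gcm2 were too low to be tested. Summed over the list, recBRM-V5 cells had 14500 and 19200 CPM and control cells 13100 and 17300 CPM. Markers of other tissues were low, at 69.9 and 77.9 CPM in sum in recBRM-V5 cells and 89.3 and 81.6 CPM in control cells over 19 genes, most of it from elav. Among them vg rose, with 15 and 22.6 CPM in recBRM-V5 cells against 1.9 and 1.95 CPM in control cells, and elav fell, with 49.4 and 43.7 CPM against 83.4 and 70.5 CPM, a call lost in each fit without 1 library. None of the 19 was at 0 in all 4 libraries, and muscle and fat body markers such as Mhc, Lsp1alpha and Yp1 stood under 5 CPM in each library. Crystal cell and lamellocyte genes summed to 1750 and 1890 CPM, against 1870 and 2100 CPM. Among them PPO2, a crystal cell prophenoloxidase, had 0.238 and 0.569 CPM, against 3.06 and 6.09 CPM (-3.49 ± 0.77, adjusted p = 0.0184), a call lost without recBRM-V5 replicate 1 or control replicate 2. In these bulk samples fewer cells of a kind and less RNA per cell cannot be told apart.

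Genes of the cell surface and its surroundings rose as well. In the extracellular matrix list 8 of 20 rose and 2 fell, with a median log2 fold change of 0.57. The lectin gene lectin-28C had 419 and 149 CPM in recBRM-V5 cells, against 40.7 and 26.8 CPM in control cells (3.07 ± 0.45, adjusted p = 0.0038). Ndg, the basement membrane protein nidogen, was one of the fallen, with 1.67 and 3.84 CPM in recBRM-V5 cells, against 20.3 and 25.5 CPM in control cells (-3.07 ± 0.44, adjusted p = 0.00327). Without control replicate 1 and 2 the list had 2 and 4 risen genes. Of 36 actin cytoskeleton genes 10 rose and none fell, most by less than 1 on the log2 scale, and 1 was left without either control replicate. Septin4 had 22.6 and 42.7 CPM, against 7.18 and 9.02 CPM (2.01 ± 0.32, adjusted p = 0.00502).

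Among signaling lists, calls in both directions were found. In the list of PDGF/VEGF, FGF and EGF signaling 6 of 32 rose and 3 fell. The FGF receptor gene htl had 91.3 and 60.3 CPM in recBRM-V5 cells, against 20.2 and 15.7 CPM in control cells (2.08 ± 0.26, adjusted p = 0.00211). The FGF ligand bnl had 46.2 and 39.1 CPM, against 16.8 and 16.1 CPM (1.38 ± 0.19, adjusted p = 0.00274). The PDGF/VEGF-like ligand Pvf3 had 86.6 and 98 CPM, against 30.2 and 32 CPM (1.57 ± 0.16, adjusted p = 0.00102), and Pvf1 had 211 and 143 CPM, against 66.6 and 61.9 CPM (1.47 ± 0.2, adjusted p = 0.003). The 3 fallen genes of the list lost their calls without recBRM-V5 replicate 2 or either control replicate, and 2 genes fell without recBRM-V5 replicate 1.

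In the TGF-beta and BMP list 4 of 21 rose and 5 fell. Actbeta, an activin ligand gene, had 18.3 and 24.3 CPM in recBRM-V5 cells, against 0.317 and 0.244 CPM in control cells (6.16 ± 0.86, adjusted p = 0.003). The activin-like ligand gene daw changed the other way, with 21.3 and 20.3 CPM, against 79 and 86.9 CPM (-1.99 ± 0.4, adjusted p = 0.013), a call lost without control replicate 2. The repressor gene brk, named after its values were seen, had 49.9 and 34.7 CPM, against 98.6 and 102 CPM (-1.24 ± 0.19, adjusted p = 0.00436). The list had 1 risen and 3 fallen genes without control replicate 1, and 2 and 2 without control replicate 2. In the list of Toll, Imd and PGRP genes 4 of 33 rose and 3 fell, shares near the 10.9% and 7.24% of all genes tested, with a median log2 fold change of -0.16. Tollo had 119 and 163 CPM, against 39 and 31.1 CPM (2.0 ± 0.26, adjusted p = 0.00231), whereas the peptidoglycan sensor PGRP-LE had 3.1 and 5.55 CPM, against 19.1 and 18.5 CPM (-2.13 ± 0.3, adjusted p = 0.003). Without control replicate 1 and 2, 1 and 2 of these genes rose and 2 fell in both. None of 7 antimicrobial peptide genes tested was called by edgeR or DESeq2, with a median log2 fold change of 0.63 and 3 higher at an unadjusted p under 0.05, although 1 was called without recBRM-V5 replicate 1 and 1 without control replicate 2.

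Several other genes rose, all but mrva from low or absent levels in control cells. DNaseII, a lysosomal nuclease gene, had 23.8 and 16.8 CPM in recBRM-V5 cells and no count in control cells, at least 59.5-fold higher (adjusted p = 0.0012). ACXA, an adenylate cyclase gene, had 13.3 and 11.1 CPM and no count in control cells, at least 35.8-fold higher (adjusted p = 0.000996). Nrx-1, a synaptic adhesion gene, had 16.6 and 35.1 CPM, against 0.633 and 0.244 CPM (5.79 ± 0.54, adjusted p = 0.000669). Npc2a, which encodes a sterol transfer protein of the Niemann-Pick family, had 48.6 and 118 CPM, against 2.74 and 5.85 CPM (4.28 ± 0.51, adjusted p = 0.00165). The neuropeptide receptor gene SIFaR had 8.1 and 17.2 CPM, against 1 count in the control libraries together, a ratio of 217 with an exact interval of 38.4 to 8600 (adjusted p = 0.0038). The abundant gene mrva had 1186 and 1297 CPM, against 255 and 241 CPM (2.32 ± 0.21, adjusted p = 0.000589).

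Of 18 glycolysis and lactate genes 5 rose and 1 fell, with a median log2 fold change of 0.7. Ldh, lactate dehydrogenase, had 94.8 and 226 CPM in recBRM-V5 cells, against 27.7 and 28 CPM in control cells (2.52 ± 0.49, adjusted p = 0.0112), and lost its call without either control replicate. The gluconeogenic gene Pepck1 had 35.5 and 36.1 CPM, against 131 and 174 CPM (-2.09 ± 0.37, adjusted p = 0.00774). The list had 11 risen genes without recBRM-V5 replicate 1, none without control replicate 1 and 2 without control replicate 2, and 3 genes fell without recBRM-V5 replicate 2. Of 20 organic anion, monocarboxylate and sugar transporters 7 rose and 1 fell, with a median of 0.65. Oatp30B had 51.1 and 56.2 CPM, against 11.4 and 9.5 CPM (2.35 ± 0.19, adjusted p = 0.000454), and was the 1 risen gene left without either control replicate. The fallen call was lost without control replicate 2, and 2 genes fell without recBRM-V5 replicate 2.

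The fallen genes had another make-up. A list of the piRNA pathway, which silences transposons in the germ line and was assembled after the values were seen, had 13 fallen and 1 risen genes of 32 tested, with a median log2 fold change of -0.31. Boot had 0.476 and 0.142 CPM in recBRM-V5 cells, against 79.6 and 72.3 CPM in control cells (-7.81 ± 0.36, adjusted p = 0.000174). The gene del, which encodes the piRNA cluster factor Deadlock, had 35.8 and 27.9 CPM, against 239 and 187 CPM (-2.74 ± 0.21, adjusted p = 0.000429). TfIIA-S-2, a TFIIA small subunit paralog, had 0.119 and 0.142 CPM, 1 count in each library, against 4.01 and 4.51 CPM. It was 32.7-fold lower, with an exact interval of 8.75 to 275.0 (adjusted p = 0.0022). Its partner moon, the Piwi proteins aub and AGO3 and the helicase armi, named after their values were seen, fell by 2.08, 1.55, 1.21 and 1.19 on the log2 scale. The risen member, spn-E, also named after its values were seen, lost its call in each of the fits without 1 library, and the number of fallen members was 7 without control replicate 1 and 10 without control replicate 2.

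Of 19 tested genes of ecdysone synthesis and response 7 fell and none rose, with a median log2 fold change of -0.58. EcR, the ecdysone receptor, had 49.3 and 48.4 CPM in recBRM-V5 cells, against 93.7 and 107 CPM in control cells (-1.04 ± 0.13, adjusted p = 0.0022). The juvenile hormone receptor gene gce had 75.4 and 70.3 CPM, against 143 and 136 CPM (-0.94 ± 0.12, adjusted p = 0.00245). Cyp18a1, which inactivates ecdysone, had 0.595 and 1.14 CPM, against 4.96 and 5.12 CPM (-2.54 ± 0.43, adjusted p = 0.0064). The ecdysone synthesis gene dib had no count in recBRM-V5 cells, against 2.96 and 2.44 CPM in control cells, at least 6.88-fold lower (adjusted p = 0.00968). Without control replicate 2 the list had 4 fallen genes.

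Lists of chromatin and transcription regulators differed in how many members fell. Of 21 Polycomb group genes 4 fell and none rose, with a median of -0.19. Psc, a subunit of the repressive complex PRC1, had 33.9 and 40.4 CPM in recBRM-V5 cells, against 107 and 108 CPM in control cells (-1.53 ± 0.17, adjusted p = 0.0013). The tandem copies ph-d and ph-p had 50.3 and 54.2 CPM, against 114 and 117 CPM (-1.14 ± 0.13, adjusted p = 0.00139), and 40.5 and 49.5 CPM, against 85.9 and 97.2 CPM (-1.03 ± 0.15, adjusted p = 0.00392), and reads may be shared between the copies. E(z) had 48 and 39.8 CPM, against 66 and 60.9 CPM (-0.53 ± 0.15, adjusted p = 0.0472), and lost its call without recBRM-V5 replicate 2 or either control replicate.

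In the list of trithorax group genes and histone modifiers 10 of 39 fell and 1 rose, with a median of -0.38. The histone methyltransferase gene trr had 46.1 and 65.8 CPM in recBRM-V5 cells, against 98.6 and 122 CPM in control cells (-0.98 ± 0.2, adjusted p = 0.0148), a call lost without control replicate 2. The fallen count was 5 without recBRM-V5 replicate 2, 1 without control replicate 1 and 0 without control replicate 2, and the risen call was lost without recBRM-V5 replicate 1 or either control replicate. Among 20 BTB and zinc finger developmental regulators 10 fell and 1 rose, with a median of -0.65. Some genes meant for this list, such as ap, br, lola and sbb, were not matched by symbol and are not counted. The sex-differentiation gene fru had 77.2 and 56.9 CPM, against 185 and 173 CPM (-1.42 ± 0.17, adjusted p = 0.00201), and the abundant zfh2 had 1123 and 690 CPM, against 2416 and 2016 CPM (-1.29 ± 0.29, adjusted p = 0.019), a call lost without either control replicate. Without control replicate 1 and 2 this list had 1 and 2 fallen genes and none risen. Of 5 GATA factors and cofactors tested 3 fell, GATAe and pnr beside srp, and 1 and 0 of them without control replicate 1 and 2.

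Other lists of this kind had few calls or calls in both directions. Of 20 other chromatin remodeling ATPases and their partners 2 rose and 2 fell, with a median of -0.22. These shares were near the 10.9% risen and 7.24% fallen of all genes tested. Simj, a subunit of the NuRD complex, had 49.7 and 48.6 CPM in recBRM-V5 cells, against 117 and 124 CPM in control cells (-1.29 ± 0.14, adjusted p = 0.00108), whereas the remodeling ATPase gene Hel89B had 493 and 498 CPM, against 329 and 280 CPM (0.7 ± 0.15, adjusted p = 0.0152). Hel89B lost its call without either control replicate, when no gene of this list rose and 1 fell, and 4 fell without recBRM-V5 replicate 1. Of 53 Mediator and basal transcription genes 1 rose and 3 fell, with a median of -0.07. MED6 had 55.7 and 75.5 CPM in recBRM-V5 cells, against 28.2 and 25.7 CPM in control cells (1.28 ± 0.19, adjusted p = 0.00357). Of this list 5 genes fell without either recBRM-V5 replicate and 1 without either control replicate.

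Cell division genes fell by small amounts. Of 38 cell cycle genes 7 fell and none rose, with a median log2 fold change of -0.29. In a list of DNA replication and chromosome structure genes assembled after the values were seen, 15 of 49 fell and 1 rose, with a median of -0.47. The risen gene, Cap-D3, contains the risen gene Cox11 on the same strand, so reads may be shared between them. Mcm5, a subunit of the replicative helicase, had 63.5 and 67.7 CPM in recBRM-V5 cells, against 116 and 127 CPM in control cells (-0.89 ± 0.13, adjusted p = 0.00409). Orc2, of the origin recognition complex, had 18.7 and 18.3 CPM, against 36.1 and 41.3 CPM (-1.06 ± 0.18, adjusted p = 0.00705), and lost its call without control replicate 2. The cell cycle list had 4 fallen genes and 1 risen without recBRM-V5 replicate 2, 2 fallen without control replicate 1 and 1 without control replicate 2. The replication list had 3 and 1 fallen genes without control replicate 1 and 2, and the risen call, Cap-D3, was lost without control replicate 2.

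Growth and cell death lists had fallen genes, and all but the Hippo list had risen genes as well. Of 16 Hippo pathway genes 2 fell and none rose, with a median log2 fold change of -0.06, and of 12 Notch pathway genes 3 fell and 1 rose, with a median of 0.11. Of 22 insulin and TOR signaling genes 3 rose and 1 fell, and of 17 apoptosis genes 2 rose and 1 fell. The shares in these last lists were near the 10.9% risen and 7.24% fallen of all genes tested. Leaving out control replicate 2 left no call in the Notch and insulin lists and 1 fallen gene in each of the Hippo and apoptosis lists, and leaving out control replicate 1 left 1 fallen gene in the Hippo, Notch and apoptosis lists and 1 risen gene in the insulin list. Without recBRM-V5 replicate 2, 4 Hippo genes fell. The Hippo pathway kinase gene wts had 69.4 and 74.8 CPM in recBRM-V5 cells, against 162 and 168 CPM in control cells (-1.19 ± 0.14, adjusted p = 0.00169). The Notch receptor gene N had 233 and 221 CPM, against 420 and 494 CPM (-1.01 ± 0.17, adjusted p = 0.00599), and lost its call without control replicate 2. The Notch regulator gene Su(dx) had 254 and 241 CPM, against 150 and 151 CPM (0.72 ± 0.14, adjusted p = 0.0102), and the growth inhibitor gene chrb had 22.9 and 19.2 CPM, against 7.6 and 6.21 CPM (1.6 ± 0.26, adjusted p = 0.00542). Su(dx) lost its call without either control replicate and chrb without control replicate 2. The cell death gene rpr had 23.3 and 17.8 CPM, against 65.7 and 49.7 CPM (-1.49 ± 0.21, adjusted p = 0.00328). Among other fallen genes, the serpin gene Spn88Eb had 3.69 and 6.4 CPM, against 146 and 134 CPM (-4.81 ± 0.25, adjusted p = 0.000192). Unc79, a sodium leak channel subunit gene, had 148 and 156 CPM, against 479 and 526 CPM (-1.73 ± 0.19, adjusted p = 0.00128). AMPdeam, which encodes AMP deaminase, had 233 and 261 CPM, against 711 and 744 CPM (-1.56 ± 0.16, adjusted p = 0.00096).

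**Figure D3:**
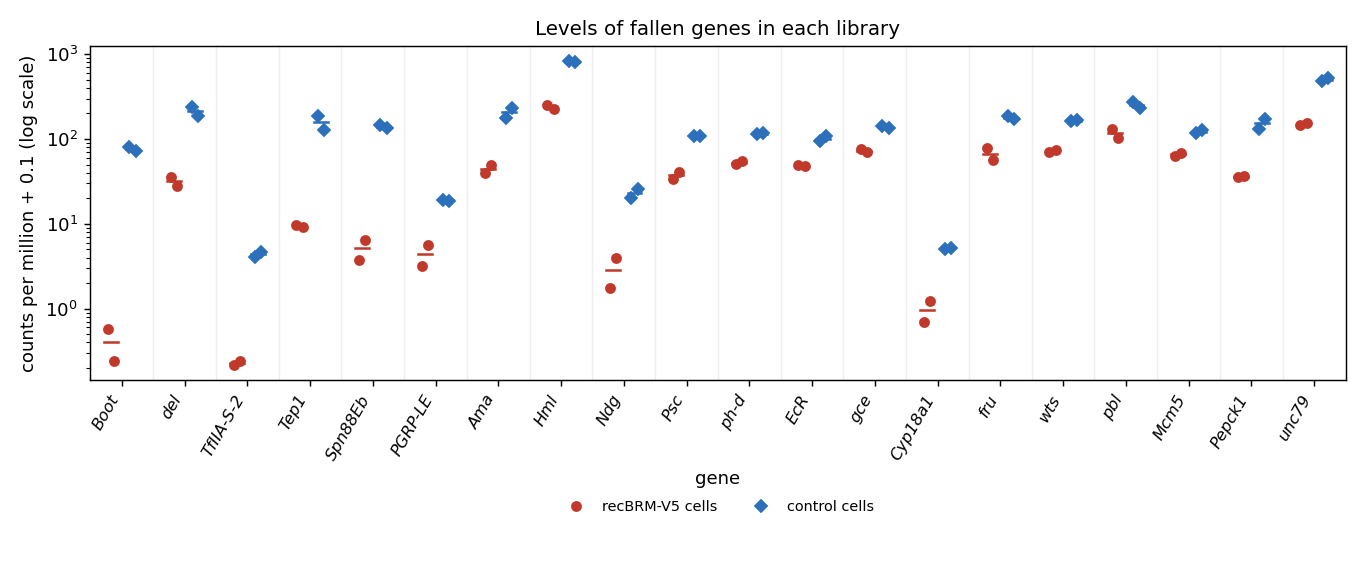
CPM plus 0.1 (log axis) of 20 fallen genes in each library of recBRM-V5 cells (red circles, left) and control cells (blue diamonds, right), with a bar at the mean of the 2 libraries. In each gene both recBRM-V5 libraries lie below both control libraries, with the widest gap for Boot.

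The libraries of the other cells put these levels in context. In recBRM-K804R-V5 cells, which carry an ATPase-dead BRM and were induced with copper in the same way, MtnA had 7429 and 5239 CPM and MtnD 75.4 and 64.2 CPM. In BRM-depleted cells, which carry no recombinant BRM, MtnA had 214 and 195 CPM and MtnD no count. NimC1 had 6.99 and 5.6 CPM in recBRM-K804R-V5 cells and 1.18 and 2.24 CPM in BRM-depleted cells. These libraries are set beside recBRM-V5 cells as levels only, and the differences between them and recBRM-V5 cells were not tested here. Hml had 97.7 and 29.7 CPM in recBRM-K804R-V5 cells and 737 and 993 CPM in BRM-depleted cells. GstD5 had 609 and 1281 CPM in recBRM-K804R-V5 cells and 58.5 and 54.2 CPM in BRM-depleted cells, and Npc2a 121 and 86.9 CPM and 3.38 and 3.92 CPM. The piRNA pathway genes differed among themselves. The del gene had 222 and 197 CPM in recBRM-K804R-V5 cells and 219 and 265 CPM in BRM-depleted cells. Boot had 2.9 and 1.82 CPM and 71 and 69.2 CPM in those cells, and AGO3 34.1 and 35 CPM and 94.7 and 108 CPM. Msr-110 had 466 and 564 CPM in recBRM-V5 cells and 1474 and 1937 CPM in control cells. It had 1904 and 1483 CPM in recBRM-K804R-V5 cells and 1406 and 1298 CPM in BRM-depleted cells.

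**Figure D4:**
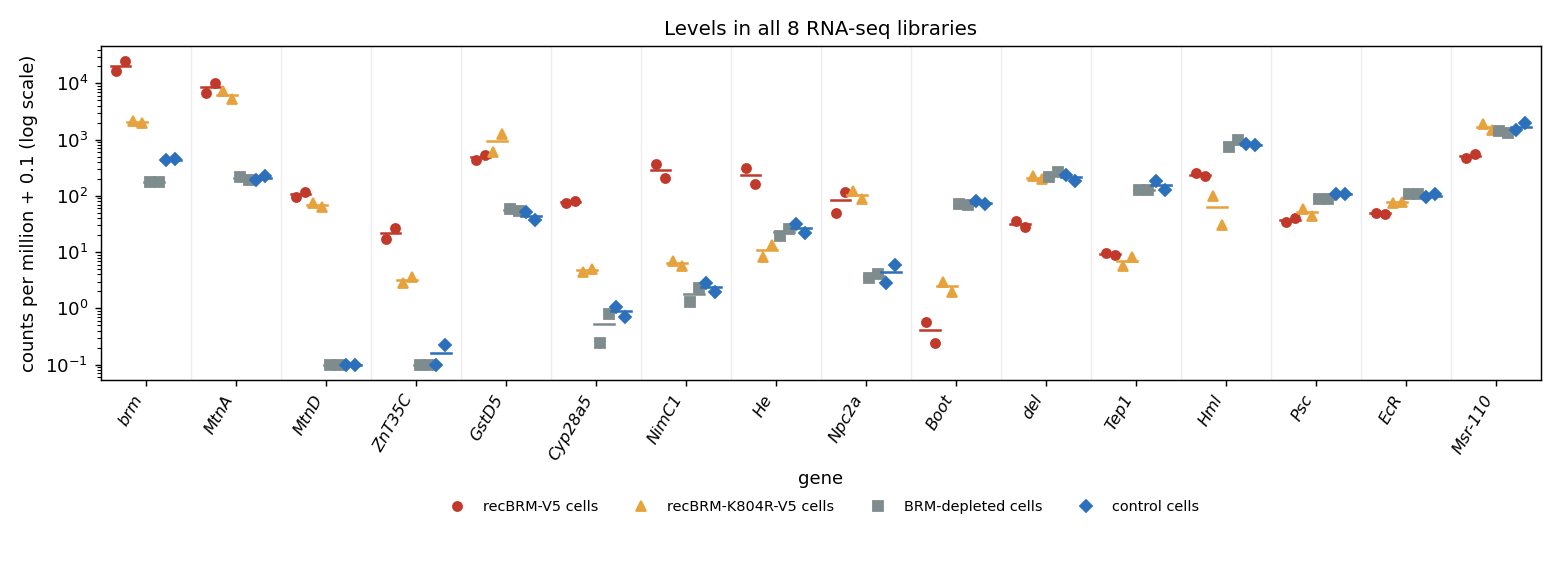
CPM plus 0.1 (log axis) of 16 named genes in all 8 RNA-seq libraries, with recBRM-V5 cells leftmost, then recBRM-K804R-V5, BRM-depleted and control cells, and a bar at the mean of each group. MtnA and MtnD are high in both copper-induced lines and low in the other cells, and del and Msr-110 are lowest in recBRM-V5 cells as plotted.

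The risen and fallen genes were also placed on the chromosomes. The X chromosome held 17% of tested genes with a gene model, 10.1% of the risen and 24.6% of the fallen genes. Chromosome arm 2L held 18.3% of tested, 23.6% of risen and 12.1% of fallen genes. Of 1325 X-linked genes tested 86 rose (6.49%) and 138 fell (10.4%), and of 1426 genes on 2L, 201 rose (14.1%) and 68 fell (4.77%). The shift was seen over all tested genes of these arms and not only in the called ones, with a median log2 fold change of -0.15 on X and 0.17 on 2L, against 0.02 on 2R, -0.03 on 3L and -0.01 on 3R. Leaving out 1 library moved the X median between -0.29 and -0.04 and the 2L median between 0.13 and 0.16. None of 8 dosage compensation genes was called by edgeR or DESeq2, 2 were lower at an unadjusted p under 0.05, and 2 fell without recBRM-V5 replicate 1. Since a stable line is compared with other cells, the line's chromosomes and the recombinant protein cannot be told apart here.

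In gene structure the groups differed modestly. The median exonic length was 2166.5 bases for risen, 2904.5 for fallen and 2093 for all tested genes with a gene model, and the median number of exons of the longest transcript was 4, 5 and 4. The antioxidant response element TGACNNNGC was found in the windows of 6.12% of risen, 6.07% of fallen and 5.97% of all tested genes. The GATA site TGATAA was found in 25.2% of risen, 18% of fallen and 20.2% of all tested genes. The AP-1 site TGANTCA was found in 6.71%, 5.0% and 5.04%, and the TATA box TATAAA in 44.5%, 41.2% and 42.8%. These shares are descriptions, with no test.

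Binding of endogenous BRM, measured by ChIP-seq in S2 cells in 2 replicates, differed little between the groups. The median ratio of immunoprecipitate to Input signal in replicate 1 was 1.01 for 828 risen genes, 0.987 for 523 fallen genes and 0.953 for 6263 tested genes without a call. In replicate 2 the ratios were 0.898 for 825 risen, 0.918 for 501 fallen and 0.87 for 6154 other genes. In both replicates the risen and fallen genes had higher medians than the other genes, with interquartile ranges that overlapped widely, such as 0.929 to 1.14 for risen and 0.888 to 1.06 for other genes in replicate 1. The signal is not scaled in a way that makes its level comparable between replicates.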

How the data were processed

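Poly(A) RNA of S2 cells was sequenced as paired-end reads from a directional library kit. Per the labels and the study's methods, the authors mapped reads with TopHat2 and counted them per gene with HTSeq, and the deposited RNA-seq table holds raw read counts, not normalized. The build is given as dm3 in the labels and as BDGP6 in the methods, and the strand setting of the counting is not given in the sources used here, so overlapping and antisense genes may share reads. For ChIP-seq, the deposited table gives each gene's mean coverage signal, which the authors computed after alignment (Bowtie is named), and no library depth. Gene IDs were matched to symbols through Ensembl BDGP6 and RefSeq tables, which gave a symbol for 12428 of 12986 IDs (95.7%) in the RNA-seq table, and sequences were read from the Release 6 genome with these gene models.

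Counts were tested in R 4.3.3 with edgeR 4.0.16 (TMM scaling, filterByExpr, quasi-likelihood test), fitted on all 8 libraries so that the 4 groups share 1 estimate of the spread, with the contrast recBRM-V5 minus control cells. Benjamini-Hochberg adjusted p-values under 0.05 over 8165 genes of 12986 were called, and the standard error was taken as the log2 fold change divided by the square root of F. The common biological coefficient of variation was 0.192. Library totals were 8759362 and 7338514 counts in recBRM-V5 cells and 9134692 and 8158092 in control cells, and 1 count is worth about 0.1 CPM. Replicates are labelled as biological, and in each of the 4 groups the 2 libraries differed by more than sampling noise. The chi-square of the counts per degree of freedom was 90.8 in recBRM-V5 cells and 36.6 in control cells. It was 33.6 in recBRM-K804R-V5 cells and 9.89 in BRM-depleted cells. With 2 libraries a group, p-values rest on the spread shared over groups. The recBRM-V5 libraries differed most, so the shared spread may be too small for them and their p-values too low.

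Alternative fits used DESeq2 1.42.0, voom from limma 3.58.1, the RLE, upper-quartile or library-size scaling, 2 other count filters (none, or at least 5 CPM in 2 libraries), a fit of only the 4 libraries, a robust fit, a replicate block, stricter thresholds and leaving out each library. An unadjusted p under 0.05 was added after seeing the data. The test functions were tested on simulated data. The ChIP-seq ratios left out the lowest 10% of Input signal in each replicate. Upstream windows were 250 bases before the annotated gene start, for 7771 genes (95.2% of those tested), and motifs were searched on both strands as printed.

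The members of the comparison and all gene lists were chosen with earlier results of these data known: 60 lists were drawn up in this way and 6 more after the present values were seen (piRNA pathway, DNA replication and chromosome structure, cytochrome oxidase copper delivery, maltases, neprilysin-like peptidases, cubilin and amnionless). Lists are described by counts and medians, with no test over a list. Over all lists 83 entries were not matched by symbol and were left out, among them Su(z)2, Hsc70-4 and InR. The count of members tested can therefore fall short of the list as written. Named genes are brm, up to 4 called members of each list with the largest change, the metallothioneins and hemocyte markers, the 15 risen and 15 fallen genes with the largest change among those with at least 10 CPM in the higher group, and the 10 risen and 10 fallen genes with the highest level among those changed at least 2-fold. Others are said to be chosen after their values were seen. Folds against libraries at 0 use a floor of 3 counts per library. Intervals and floors cover counting error only.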

Additional observations from a re-analysis of the deposited data

How the results depend on the processing

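Every called gene that could be tested again kept its direction under each alternative fit, and none of the 259 named genes tested changed sign with a call. The libraries of called genes did not overlap, so these fits could hardly reverse a direction, and the kept direction adds no support. The calls depended on the libraries and the threshold. Against 892 risen and 591 fallen genes, fitting only the 4 libraries gave 509 and 231, an adjusted p under 0.01 gave 373 and 187, requiring a log2 fold change of at least 1 left 322 fallen genes, and an unadjusted p under 0.05, added after seeing the data, gave 1416 and 1146. Leaving out 1 library gave 309 to 1049 risen and 193 to 713 fallen genes, the low ends without a control library. A group left with 1 library is assumed to vary like the others in these fits. DESeq2 gave 949 and 667, limma-voom 874 and 602, library-size scaling 760 and 751, and no count filter 1092 and 811. Of the named genes, 6 lost their call with DESeq2, 15 with library-size scaling, 85 with only the 4 libraries, 117 without control replicate 1 and 126 without control replicate 2. Whether libraries were paired across groups is not settled. Deviations of same-numbered libraries correlated at 0.696 between recBRM-V5 and control cells, and at 0.292 between BRM-depleted and recBRM-K804R-V5 cells. In the other pairs of groups the correlation lay between -0.402 and -0.313. The replicate numbers thus do not mark 1 shared batch over all groups, and a pairing under another numbering was not tested. The replicate block uses the numbers as labelled. With the replicate block 795 genes rose and 488 fell, and 27 named genes lost their call. Keeping genes of low Input signal gave a median ChIP-seq ratio of 0.991 in place of 0.987 for fallen genes in replicate 1.

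The comparison has 2 libraries a group, and 1 control library decides many calls with small changes, including most of the proteasome, actin, cell cycle and chromatin regulator members. Genes near 0 counts have wide intervals. Recombinant protein, dsRNA, copper and cell line cannot be told apart.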

Other observations

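Smaller groups also changed, some of them chosen after the values were seen. In a list of neprilysin and angiotensin-converting enzyme-like peptidases, 7 of 18 tested genes rose and 1 fell, with a median log2 fold change of 0.92. Nepl16 had 92.3 and 69.3 CPM in recBRM-V5 cells, against 10 and 6.21 CPM in control cells (log2 fold change 3.31 ± 0.29, adjusted p = 0.000576). The count of risen genes was 4 without either control replicate, and the fallen call was lost without control replicate 1. Both Cubn2 and Amnionless, which encode the fly partners of an endocytic receptor for proteins, rose. Cubn2 had 10.4 and 9.95 CPM in recBRM-V5 cells, against 1 count in the control libraries together, a ratio of 180 with an exact interval of 31.8 to 7150 (adjusted p = 0.000841). Amnionless had 2.74 and 2.28 CPM and no count in control cells, at least 7.35-fold higher (adjusted p = 0.0102), and lost its call without either control replicate. Among genes that deliver copper to cytochrome oxidase or carry metals into mitochondria, 5 of 8 rose, with a median of 0.62. One of the risen, Cox11, lies within the gene Cap-D3 on the same strand, so their reads and rises may be shared. Cox11 had 34.2 and 30.7 CPM in recBRM-V5 cells, against 18.6 and 14.9 CPM in control cells (0.95 ± 0.19, adjusted p = 0.0123), and lost its call without control replicate 2. The count was 3 and 2 without recBRM-V5 replicate 1 and 2, 1 without control replicate 1 and 0 without control replicate 2.

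Chemosensory receptor and binding protein genes moved in both directions, with 11 of 38 tested risen and 7 fallen. Ir41a had 1 count in each recBRM-V5 library, against 11.7 and 10.4 CPM in control cells, a ratio of 85.5 with an exact interval of 23.4 to 711 (adjusted p = 0.000429). Gr63a, a carbon dioxide receptor gene in flies, had 8.57 and 11.8 CPM in recBRM-V5 cells, against 0.422 and 0 CPM in control cells (5.41 ± 0.79, adjusted p = 0.00357). The list had 7 risen genes without recBRM-V5 replicate 1, 5 and 3 without control replicate 1 and 2, and 4, 3 and 2 fallen genes without recBRM-V5 replicate 2, control replicate 1 and control replicate 2. The wing selector gene vg, a marker of another tissue, had 15 and 22.6 CPM in recBRM-V5 cells, against 1.9 and 1.95 CPM in control cells (3.28 ± 0.44, adjusted p = 0.00245).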
